A study of Mus musculus with 6 samples.

Results

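The SLC25 genes encode the mitochondrial carriers, a family of small membrane proteins that move metabolites across the inner mitochondrial membrane. The 46 genes described here are all those of 19533 measured genes whose symbol is Slc25a followed by a number, each read by the probe set of that gene with the highest mean over all arrays. Total RNA came from live epithelial cells positive for the surface protein EpCAM, sorted out of the large intestine. All mice were C57BL/6 and germ-free, that is, raised without bacteria. The 3 mice of the control group, HDAC3FF, had floxed Hdac3 alleles, and the 3 mice of the other group, HDAC3ΔIEC, lacked Hdac3 in intestinal epithelial cells. Each mouse gave 1 Affymetrix array. The sources used here name neither the age of the mice nor the driver of the deletion. The question is how carrier transcripts depend on epithelial Hdac3 without bacteria.

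HDAC3 is a histone deacetylase that works inside corepressor complexes and removes acetyl groups from chromatin. Most SLC25 carriers exchange 1 solute for another: adenine nucleotides and phosphate for ATP supply, fatty acyl groups as carnitine esters for oxidation, di- and tricarboxylates for gluconeogenesis and lipid synthesis, and amino acids and cofactors for the enzymes of the matrix. Colon epithelial cells are known for oxidising short-chain fatty acids made by bacteria, a fuel that germ-free animals largely lack.

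Among the 46 carriers, Slc25a45 and Slc25a34 rose and Slc25a36 fell in HDAC3ΔIEC. The rise of Slc25a45, a relative of the carnitine carrier, was 6.53-fold, that of Slc25a34, a carrier of uncertain substrate, was 1.54-fold, and Slc25a36, a carrier of pyrimidine nucleotides, went to 61.4% of the control level. The other 43 carriers did not reach the threshold used for every call here, a limma p below 0.05 after Benjamini-Hochberg adjustment over all 19533 genes. Of all genes tested, 0.701% passed, 0.369% higher and 0.333% lower, against 3 of the 46 carriers (6.52%).

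The sequence upstream of the start site is shown for these 3 carriers, the only members with a called change. RefSeq promoter entries (build GRCm38.p6) matched 36 of the 46 carriers by symbol. Each line holds the 250 bases before the annotated start, 5′ to 3′ on the gene's strand, and capitals mark matches to 8 motifs searched on both strands. Slc25a45 (NCBI gene 107375) lies at chr19:5877572-5877821 on the plus strand, Slc25a34 (gene 384071) at chr4:141623835-141624084 on the minus strand, and Slc25a36 (gene 192287) at chr9:97111042-97111291 on the minus strand, where the coordinates are those of the printed stretch.
Slc25a45: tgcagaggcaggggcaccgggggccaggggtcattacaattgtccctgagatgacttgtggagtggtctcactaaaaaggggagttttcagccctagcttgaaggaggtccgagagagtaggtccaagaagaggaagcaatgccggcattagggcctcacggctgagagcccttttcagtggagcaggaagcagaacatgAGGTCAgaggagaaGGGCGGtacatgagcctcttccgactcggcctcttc
Slc25a34: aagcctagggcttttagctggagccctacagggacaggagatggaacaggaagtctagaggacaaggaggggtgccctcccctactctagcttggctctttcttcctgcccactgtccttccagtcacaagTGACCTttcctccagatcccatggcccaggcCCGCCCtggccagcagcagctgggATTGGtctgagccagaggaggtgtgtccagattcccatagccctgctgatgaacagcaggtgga
Slc25a36: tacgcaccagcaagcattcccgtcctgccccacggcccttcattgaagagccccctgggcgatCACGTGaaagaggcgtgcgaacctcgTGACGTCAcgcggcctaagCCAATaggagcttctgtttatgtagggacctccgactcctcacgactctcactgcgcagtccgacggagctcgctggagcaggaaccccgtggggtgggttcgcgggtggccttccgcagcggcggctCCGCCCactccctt

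The motifs were the GC box GGGCGG, the CCAAT box, the TATA box TATAAA, the nuclear receptor core site AGGTCA, a direct repeat of that core with 1 free base between the copies, the E box CACGTG, the NRF1 site and the cyclic AMP response element TGACGTCA. Every direct repeat also contains the core site. All 3 windows held a GC box, found in 32.7% of 32851 RefSeq windows of the same length. Both carriers that rose held 1 core site, from -50 to -45 relative to the start in Slc25a45 and from -119 to -114 in Slc25a34, against 14% of all windows. Slc25a36 held an E box (6.02% of all windows) and a cyclic AMP response element (1.55%), and Slc25a34 and Slc25a36 each held a CCAAT box (33.8%). The letters of the TATA box (12.4%), the direct repeat (0.0335%) and the NRF1 site (0.782%) were in none of the 3 windows. CpG dinucleotides numbered 7, 1 and 24 in the windows of Slc25a45, Slc25a34 and Slc25a36, where the median over all windows was 6. A match is a stretch of letters and shows no binding.

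The values below are deposited log2 signals, so a difference of 1 is a doubling. Median signals over all genes lay between 5.30 and 5.35 on the 6 arrays, no 2 arrays held the same values, and 14 of the 46 carriers had a mean under the median of all genes, where the files do not mark signals below background. Hdac3 itself read 7.12 ± 0.21 in HDAC3FF and 6.27 ± 0.29 in HDAC3ΔIEC (SD, n = 3 each), lower on all 3 HDAC3ΔIEC arrays and not past the threshold (limma adjusted p = 0.0937). The epithelial markers Epcam and Vil1 differed by -0.06 ± 0.10 and 0.18 ± 0.13 (log2 fold change ± SE), and 0 of 12 epithelial markers passed (list median 0.14). The groups did not overlap for 5 of the 12, all higher in HDAC3ΔIEC. Of all genes, 8.45% were higher and 7.7% lower without overlap. The 5 were the keratins Krt18 (0.53 ± 0.16), Krt20 (0.41 ± 0.16), Krt19 (0.30 ± 0.09) and Krt8 (0.26 ± 0.08) and the carbonic anhydrase Car1 (0.17 ± 0.08). The keratins had an unadjusted limma p under 0.05. In 8 lists of markers of other cells, Insl5 and Pyy of the enteroendocrine list rose and C1qa of the myeloid list fell. RNA from a mixed population cannot tell fewer cells of a type from less RNA per cell. With 3 arrays per group, the exact permutation test cannot go below p = 0.1. The p-values of limma set each difference against the spread between these mice, drawn toward a value shared by all genes.

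Slc25a45 has been described as a carrier of methylated amino acids that feed carnitine synthesis. It read 5.51, 5.27 and 5.39 on the HDAC3FF arrays and 8.43, 7.98 and 7.88 on the HDAC3ΔIEC arrays. The lowest HDAC3ΔIEC array stood far above the highest control, and neither group spread by more than a fraction of that gap. The means were 5.39 ± 0.12 and 8.10 ± 0.29 (SD, n = 3 each), and the log2 fold change was 2.71 ± 0.15 (SE; limma adjusted p = 0.00104). With any 1 array left out the log2 fold change lay between 2.54 and 2.81, and it passed each time.

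Slc25a20, the carnitine-acylcarnitine carrier through which long-chain acyl groups enter the matrix, read 9.33, 9.52 and 9.92 in HDAC3FF and 10.40, 10.62 and 10.03 in HDAC3ΔIEC. The groups did not overlap, although HDAC3FF replicate 3 came close to HDAC3ΔIEC replicate 3. Its log2 fold change was 0.76 ± 0.19 (SE) and missed the threshold (limma adjusted p = 0.165), and without HDAC3FF replicate 3 it was 0.93 (limma adjusted p = 0.0509). The remaining relatives showed smaller differences of either sign. Slc25a47, a carrier known mainly from liver, read 5.75, 5.49 and 5.84 in HDAC3FF against 5.52, 5.39 and 5.45 (log2 fold change -0.24 ± 0.11, SE). Slc25a48, described as a choline carrier, gave 0.08 ± 0.09 and Slc25a29, a carrier of basic amino acids, gave -0.05 ± 0.13, and both had overlapping groups. So 1 of the 5 genes of this branch was called, and the difference between its change and those of its relatives was not tested. In the annotation Slc25a29 and Slc25a47 are neighbours on the chromosome.

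**Figure D1:**
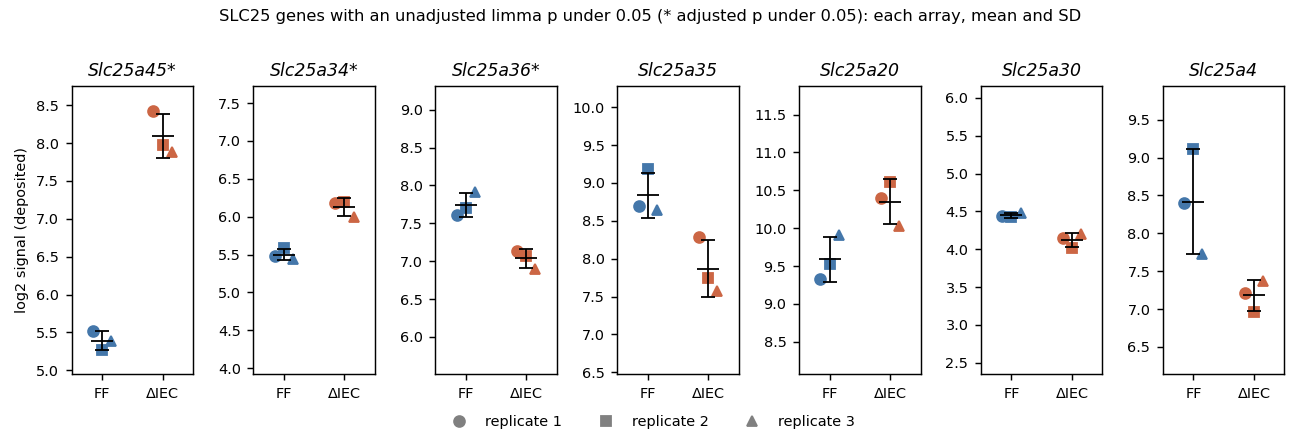
Log2 signal on each array for the 7 SLC25 genes with an unadjusted limma p under 0.05; symbols give the replicate, bars the mean and SD of 3 arrays, every panel spans the same number of log2 units, and asterisks mark an adjusted p under 0.05. Slc25a45 stands apart with means of 5.39 and 8.10, while in Slc25a4 the control arrays spread from 7.73 to 9.12.

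Of the 5 carriers of uncertain substrate, Slc25a34 rose, none fell and 4 did not pass. Slc25a34 read 5.48, 5.58 and 5.44 in HDAC3FF and 6.19, 6.20 and 5.99 in HDAC3ΔIEC. All HDAC3ΔIEC arrays lay above all controls, at signals a little above the median of all genes. The log2 fold change was 0.63 ± 0.09 (SE; limma adjusted p = 0.0423). Slc25a35, its closest relative in the family, went the other way, with 8.70, 9.18 and 8.64 in HDAC3FF and 8.29, 7.74 and 7.57 in HDAC3ΔIEC. These groups did not overlap either, but the log2 fold change, -0.97 ± 0.22 (SE), missed the threshold (limma adjusted p = 0.121). Slc25a53 read 3.46, 3.59 and 3.54 against 3.44, 3.67 and 3.62, and overlapped. Slc25a46, an outer membrane protein linked to mitochondrial shape, gave -0.06 ± 0.12 and Slc25a43 gave -0.02 ± 0.10 (log2 fold change ± SE).

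Slc25a36, which brings pyrimidine nucleotides into the matrix for mitochondrial DNA and RNA, was the only 1 of 8 carriers of cofactors and other nucleotides to pass. It read 7.61, 7.70 and 7.91 in HDAC3FF and 7.14, 7.07 and 6.90 in HDAC3ΔIEC. Every HDAC3ΔIEC array lay under every control. The log2 fold change was -0.70 ± 0.11 (SE), just past the threshold (limma adjusted p = 0.0496). The second probe set of the gene, not used for the test, had means of 7.14 ± 0.19 in HDAC3FF and 6.39 ± 0.24 in HDAC3ΔIEC (SD, n = 3 each), a difference of -0.75 on the log2 scale.

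The calls of Slc25a34 and Slc25a36 were lost on most omissions of 1 array, while the log2 fold changes kept their sign. Over all omissions these ran from 0.59 to 0.69 for Slc25a34 and from -0.77 to -0.62 for Slc25a36. Both passed without HDAC3FF replicate 3, at log2 fold changes of 0.60 and -0.62, and neither passed without HDAC3FF replicate 1 or 2 or without HDAC3ΔIEC replicate 1, 2 or 3, where the adjusted p of each reached up to 0.203. The number of carriers called was 1 on leaving out any 1 of these 5 arrays and 4 without HDAC3FF replicate 3. Calls over all genes moved as well, from 137 to between 13 and 46 in those 5 omissions and to 430 without HDAC3FF replicate 3. Slc25a34 also lost its call with adjustment over all probe sets (limma adjusted p = 0.0539). Slc25a36 lost its call there too (0.0619), and with an intensity trend (0.0680), a robust prior (0.0520), quantile normalization (0.0506) or median centring (0.0530).

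The other cofactor and nucleotide carriers did not pass. Slc25a33, a second pyrimidine nucleotide carrier, read 5.02, 5.25 and 5.19 in HDAC3FF and 5.27, 5.34 and 5.27 in HDAC3ΔIEC. It was higher on every HDAC3ΔIEC array by a small step, with a log2 fold change of 0.14 ± 0.09 (SE). Slc25a26, the carrier of S-adenosylmethionine, read 5.35, 5.62 and 5.23 against 5.50, 5.74 and 5.66 (log2 fold change 0.24 ± 0.12, SE), and overlapped. Slc25a51, the NAD carrier, gave 0.21 ± 0.14 and Slc25a17, a peroxisomal carrier of cofactors, gave 0.17 ± 0.19 (log2 fold change ± SE). Slc25a42, which carries coenzyme A, gave 0.03 ± 0.11, Slc25a16 gave -0.01 ± 0.18 and Slc25a32, linked to folate and FAD transport, gave -0.13 ± 0.16. All of these 5 had overlapping groups.

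None of the 9 adenine nucleotide and phosphate carriers passed. Slc25a4, an ADP/ATP translocase known as the form of heart and muscle, had the largest difference among them. It read 8.40, 9.12 and 7.73 in HDAC3FF and 7.21, 6.96 and 7.37 in HDAC3ΔIEC. The groups did not overlap, but the controls spread widely and replicate 3 among them stood nearest to HDAC3ΔIEC. The log2 fold change was -1.24 ± 0.32 (SE), or 42.4% of the control level, and missed the threshold (limma adjusted p = 0.167). Without HDAC3FF replicate 3 it was -1.58 and passed (limma adjusted p = 0.0223), and over all omissions of 1 array it ran from -1.58 to -0.89.

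Slc25a5, the ADP/ATP translocase of proliferating cells, read 12.75, 12.90 and 12.89 in HDAC3FF and 12.92, 12.89 and 13.19 in HDAC3ΔIEC. The groups overlapped, and the log2 fold change was 0.15 ± 0.11 (SE). Its other probe sets differed by 0.21, with every HDAC3ΔIEC array above the controls, and by 0.14, with overlap. ADP/ATP translocase genes are similar in sequence, and probes may be shared between copies. The testis form Slc25a31 gave 0.01 ± 0.09, and the phosphate carrier Slc25a3, which supplies ATP synthase, gave 0.09 ± 0.09 (log2 fold change ± SE). Among the calcium-regulated ATP-Mg/phosphate carriers, Slc25a24 read 9.37, 9.25 and 8.96 in HDAC3FF and 9.42, 9.38 and 9.54 in HDAC3ΔIEC. It was higher on each HDAC3ΔIEC array, but the lowest of these read 9.376 and the highest control 9.372. The log2 fold change was 0.26 ± 0.12 (SE, with a limma adjusted p = 0.508). Slc25a25 gave -0.22 ± 0.20, Slc25a23 -0.09 ± 0.10, Slc25a41 0.02 ± 0.12 and Slc25a54 0.06 ± 0.12, all with overlapping groups. In the annotation Slc25a24 is the neighbour of Slc25a54, Slc25a23 of Slc25a41, and Slc25a5 of Slc25a43, and in none of these pairs was a member called.

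**Figure D2:**
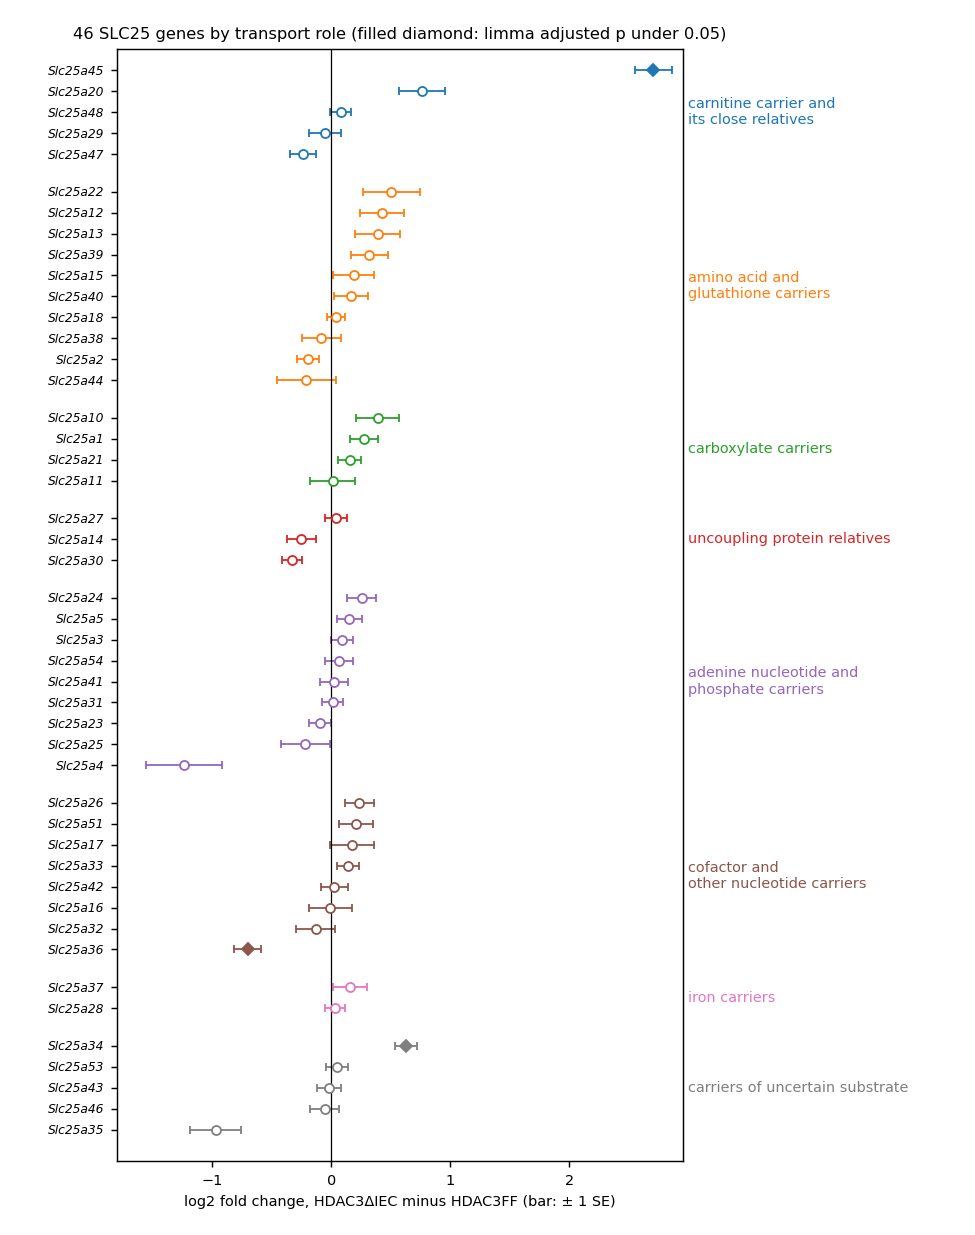
Log2 fold change of each of the 46 SLC25 genes, HDAC3ΔIEC minus HDAC3FF, with bars of 1 SE from limma, grouped and coloured by transport role; filled diamonds passed at an adjusted p under 0.05. Slc25a45 lies at 2.71, Slc25a34 at 0.63 and Slc25a36 at -0.70, and most of the others lie within 0.5 of 0.

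The 4 carboxylate carriers all had positive log2 fold changes, and none passed. Slc25a1, the citrate carrier that exports citrate for lipid synthesis, read 9.23, 9.47 and 9.57 in HDAC3FF and 9.61, 9.86 and 9.63 in HDAC3ΔIEC. Its groups did not overlap, by a narrow margin (log2 fold change 0.27 ± 0.12, SE; limma adjusted p = 0.463). Slc25a10, the dicarboxylate carrier, read 8.81, 9.06 and 9.38 against 9.47, 9.73 and 9.22, where HDAC3ΔIEC replicate 3 fell under the highest control. Its log2 fold change was 0.39 ± 0.18 (SE). Slc25a21, an oxodicarboxylate carrier, read 3.43, 3.41 and 3.33 against 3.51, 3.42 and 3.70 (0.15 ± 0.10), at signals under the median of all genes. Slc25a11, the oxoglutarate carrier of the malate-aspartate shuttle, gave 0.01 ± 0.19.

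None of the 10 amino acid and glutathione carriers passed, and 7 had positive log2 fold changes, with a median of 0.18. Slc25a12 and Slc25a13 are the aspartate-glutamate carriers of the malate-aspartate shuttle. Slc25a12 read 7.16, 7.40 and 6.69 in HDAC3FF and 7.68, 7.47 and 7.39 in HDAC3ΔIEC, with the highest control just above the lowest HDAC3ΔIEC array (log2 fold change 0.43 ± 0.18, SE; limma adjusted p = 0.449). Slc25a13 read 6.63, 7.23 and 6.84 against 7.0, 7.33 and 7.54, and overlapped (0.39 ± 0.19). Slc25a22, a glutamate carrier, read 6.15, 6.39 and 6.97 against 7.06, 7.29 and 6.68 (0.51 ± 0.24). Here HDAC3FF replicate 3 lay above HDAC3ΔIEC replicate 3.

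The glutathione carriers Slc25a39 and Slc25a40 gave 0.32 ± 0.16 and 0.16 ± 0.14 (log2 fold change ± SE), both with overlapping groups. The unused probe set of Slc25a40 differed by 0.46, with all 3 HDAC3ΔIEC arrays above the controls, so its probe sets disagree in size. The ornithine carriers Slc25a15 and Slc25a2 gave 0.19 ± 0.17 and -0.19 ± 0.09. The second of these did not overlap between groups at a very low signal, 3.79 ± 0.14 in HDAC3FF and 3.59 ± 0.01 in HDAC3ΔIEC (SD, n = 3 each). Slc25a44, a carrier of branched-chain amino acids, gave -0.21 ± 0.25, the glycine carrier Slc25a38 gave -0.08 ± 0.17 and the glutamate carrier Slc25a18 gave 0.04 ± 0.08.

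None of the 3 uncoupling protein relatives passed. Slc25a30 read 4.44, 4.43 and 4.48 in HDAC3FF and 4.14, 4.01 and 4.20 in HDAC3ΔIEC. The groups were tight and apart, at signals under the median of all genes (log2 fold change -0.33 ± 0.08, SE; limma adjusted p = 0.166). Slc25a14 read 6.00, 6.35 and 6.19 against 5.77, 5.94 and 6.08 (-0.25 ± 0.12), and overlapped. Slc25a27 read 3.85, 3.92 and 4.01 against 4.07, 3.97 and 3.87 (0.04 ± 0.09). The 2 iron carriers, the mitoferrins, overlapped as well. Slc25a37, the mitoferrin of red cell precursors, read 7.08, 7.22 and 7.31 against 7.23, 7.20 and 7.66 (0.16 ± 0.14). Slc25a28, the more widely expressed mitoferrin, read 6.28, 6.37 and 6.32 against 6.45, 6.34 and 6.29 (0.03 ± 0.08).

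Signs were mixed over the family. Of the 46, 30 had positive and 16 negative log2 fold changes, with a median of 0.05, where the median over all genes was 0.01. With genes under the median signal left out, the median of the remaining carriers was 0.15. The groups did not overlap for 11 carriers (23.9%), against 16.2% of all genes. Of these, 6 were higher and 5 lower in HDAC3ΔIEC, against 8.45% and 7.7% of all genes. Some of the higher ones separated narrowly. The lowest HDAC3ΔIEC array and the highest control read 9.376 and 9.372 for Slc25a24, 5.268 and 5.253 for Slc25a33, and 9.61 and 9.57 for Slc25a1. The share of all genes takes no account of the size of the gap either. Without HDAC3ΔIEC replicate 1 or replicate 3 the count of carriers without overlap was 17 each time (37.0%). The share of all genes also rose, to 24.3% and 26.8%. Without HDAC3FF replicate 3 the count was 13 (28.3%), a smaller share than the 31.7% of all genes. An unadjusted limma p under 0.05 was found for 7 carriers (15.2%), namely Slc25a45, Slc25a34, Slc25a20, Slc25a36, Slc25a35, Slc25a30 and Slc25a4, against 11.2% of all genes.

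**Figure D3:**
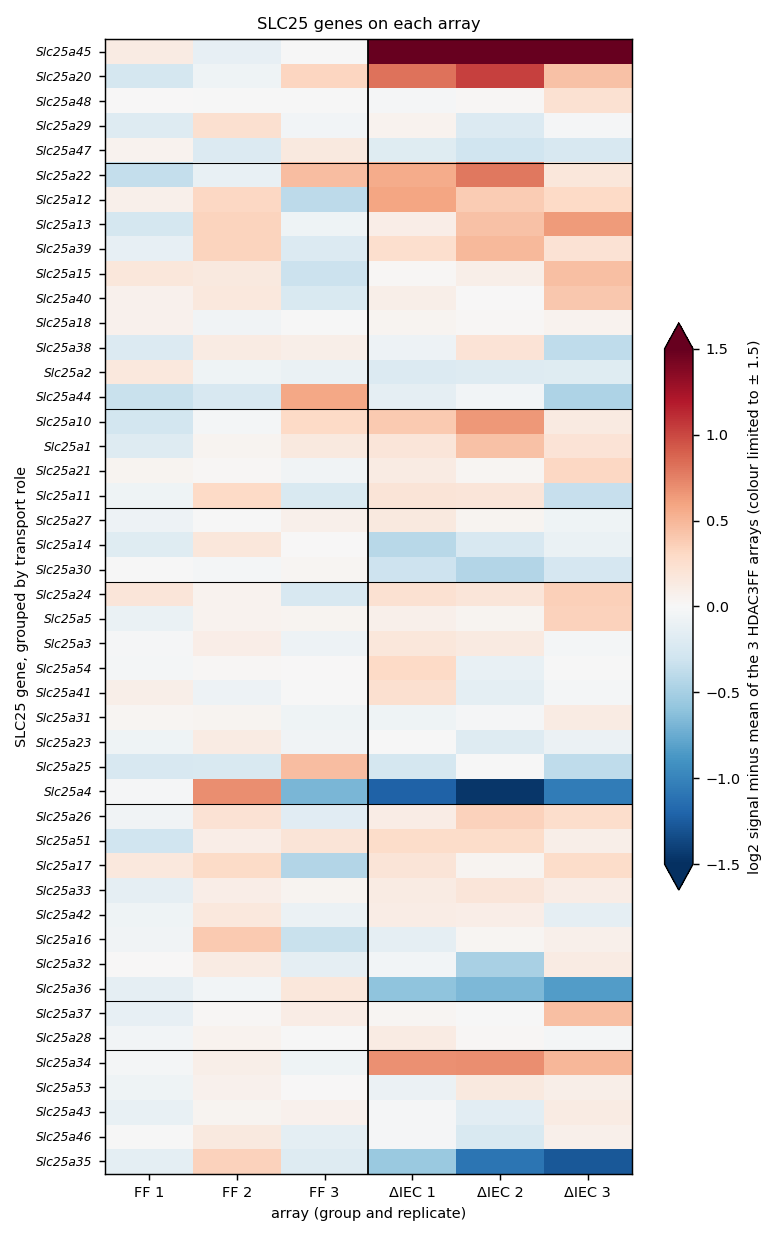
Log2 signal of each SLC25 gene on each of the 6 arrays, minus the mean of that gene over the 3 HDAC3FF arrays; rows are grouped by transport role, columns are arrays, and colours are limited to 1.5 either way. The row of Slc25a45 is at the upper limit on all 3 HDAC3ΔIEC arrays, and HDAC3FF replicate 3 departs from the other controls in several rows, such as Slc25a44 (8.70 there) and Slc25a4 (7.73 there).

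The controls differed among themselves in several carriers. HDAC3FF replicate 3 was the highest control for Slc25a44, at 8.70 against 7.78 and 7.87, and for Slc25a25, at 6.78 against 6.08 and 6.09. It was the lowest control for Slc25a17, at 7.23 against 7.82 and 7.94. Over the 46 carriers HDAC3FF replicate 3 was the control nearest to the HDAC3ΔIEC mean for 13 (28.3%) and the farthest for 17 (37.0%). Over all genes these shares were 34.4% and 36.4%. HDAC3ΔIEC replicate 3 was the array of its group nearest to the control mean for 17 of the 46 (37.0%), and for 31.5% of all genes. It was the farthest for 18 of the 46 (39.1%), and for 40.2% of all genes.

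Genes that work beside the carriers were read in 6 further lists with 75 measured genes, of which 3 rose, 1 fell and 71 did not pass. Of all 19533 genes, 0.369% rose and 0.333% fell at the same threshold. Of 10 measured genes of carnitine synthesis and acyl transfer, Cpt2, Crot and the others gave 1 rise and 1 fall (median log2 fold change 0.12). Cpt2, the inner membrane transferase that takes acyl groups delivered by Slc25a20, read 9.76, 9.88 and 9.61 in HDAC3FF and 10.46, 10.46 and 10.50 in HDAC3ΔIEC. Its groups were far apart relative to their spread (0.72 ± 0.09, SE; limma adjusted p = 0.0308). Crot, the peroxisomal octanoyltransferase, fell from 8.86, 8.84 and 8.96 to 8.32, 8.20 and 8.27 (-0.63 ± 0.08; limma adjusted p = 0.0311). Cpt1a, the outer membrane transferase, gave 0.43 ± 0.20, and neither it nor Bbox1, the last enzyme of carnitine synthesis, passed. Bbox1 gave 0.17 ± 0.12, at signals under the median of all genes. In the same list Aldh9a1 (0.55 ± 0.16) was higher and Slc22a4 (-0.60 ± 0.23) lower on every HDAC3ΔIEC array, and neither passed.

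Of 11 measured shuttle enzymes, 2 rose, none fell and 9 did not pass, with a median log2 fold change of 0.31. Me1, the cytosolic malic enzyme, read 5.20, 5.75 and 5.25 in HDAC3FF and 6.96, 7.82 and 7.85 in HDAC3ΔIEC. All HDAC3ΔIEC arrays were well above the controls, with replicate 1 the lowest of them (2.15 ± 0.26, SE; limma adjusted p = 0.0276), but averaging both of its probe sets gave 1.38 and no call (limma adjusted p = 0.124). Gpd1, the cytosolic glycerol-3-phosphate dehydrogenase, read 5.51, 5.32 and 5.27 against 6.02, 6.06 and 5.92 (0.63 ± 0.10; limma adjusted p = 0.0436). The number of called genes over the 6 lists fell to 0 when HDAC3FF replicate 1, HDAC3ΔIEC replicate 2 or HDAC3ΔIEC replicate 3 was left out. It was 1, Me1, on leaving out HDAC3FF replicate 2 or HDAC3ΔIEC replicate 1.

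The other 4 lists held no called gene. Of 15 other inner membrane transport proteins, the sideroflexins Sfxn5 (-0.80 ± 0.16, SE) and Sfxn3 (-0.62 ± 0.15) had the smallest p (list median -0.08). Of 14 genes of carrier import through TOM70 and TIM22, the path by which SLC25 proteins reach the inner membrane, these were Agk (-0.36 ± 0.13) and Timm22 (0.39 ± 0.21), with a list median of 0.03. Of 21 genes of mitochondrial content and biogenesis they were the mitofusins Mfn2 (0.41 ± 0.13) and Mfn1 (-0.22 ± 0.10), with a list median of 0.14. Of 4 measured uncoupling proteins and MTCH carriers, which belong to the same family under other names, they were Mtch1 (-0.33 ± 0.11) and Ucp1 (0.10 ± 0.11), with a list median of 0.06.

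**Figure D4:**
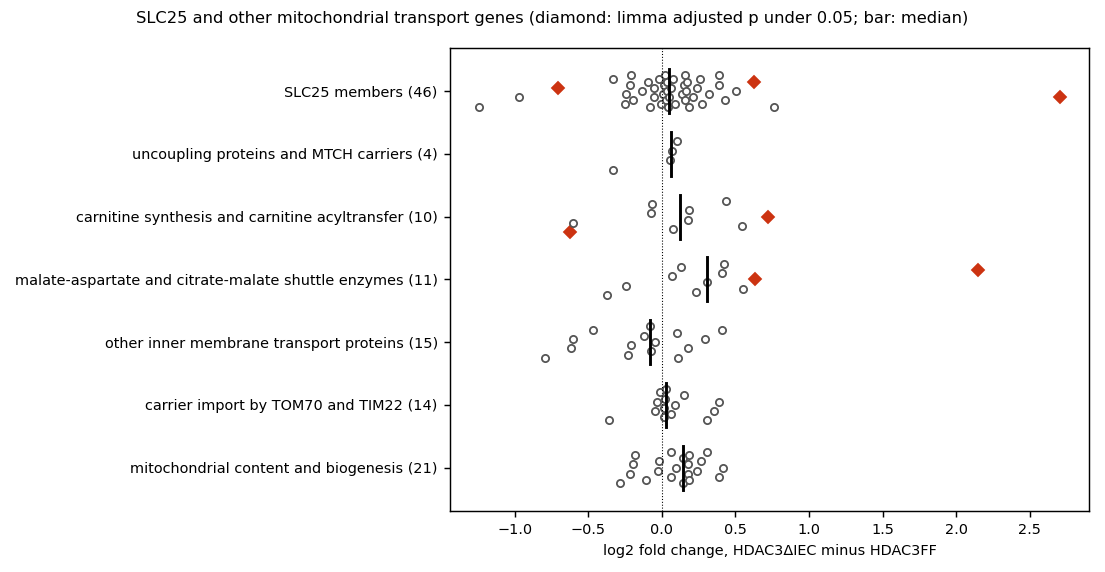
Log2 fold changes, HDAC3ΔIEC minus HDAC3FF, of the 46 SLC25 genes and of 6 lists of genes that work beside the carriers (number measured in brackets). Not all genes of these lists are mitochondrial or transport genes. Each point is a gene, red diamonds passed limma at an adjusted p under 0.05, and black bars are list medians, from -0.08 to 0.31. Height within a row has no meaning. Called genes are 3 SLC25 genes, Cpt2 and Crot of the carnitine list, and Me1 and Gpd1 of the shuttle list.

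Most enteroendocrine markers were higher in the same arrays as Slc25a45. Of 10 measured, 9 had positive log2 fold changes and 2 were called, Insl5 (3.07 ± 0.28, SE) and Pyy (2.22 ± 0.33), which encode gut hormones. Pcsk1 went the other way, lower on every HDAC3ΔIEC array (-0.32 ± 0.10), and Scg5 differed little (0.04 ± 0.12). Summed on the linear scale, the 10 markers lay between 2488 and 4739 in HDAC3FF and between 8023 and 10090 in HDAC3ΔIEC, and none of them was at 0. The part of these cells in the difference of Slc25a45 was not tested. The 10 myeloid markers summed to between 501 and 580 in HDAC3FF and between 358 and 444 in HDAC3ΔIEC, and their part was not tested either. Of these, C1qa fell (-1.71 ± 0.19, SE) and no other was called. The bright marker Cd14 gave -0.40 ± 0.16, while 4 of the 10 had positive log2 fold changes, and the list median was -0.05. Lyz2 (0.20 ± 0.16) and C1qb (0.07 ± 0.10) were among the positive ones, and C1qc gave -0.11 ± 0.11. Apart from Cd14 and C1qa, all 10 had mean signals under the median of all genes. Sums on the linear scale weigh the brightest markers most.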

How the data were processed

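The authors deposited log2 signals by probe set, judged from the range of the values. Per the submitters' processing notes, Affymetrix Power Tools was used; its settings, normalization included, are not stated in the sources used here. Values were used as deposited. Of the probe sets, 21105 have 1 symbol in the platform annotation, 1254 have several and 2580 none listed; the brightest probe set per gene gave 19533 genes. Symbols were checked against RefSeq GRCm38.p6 by Entrez number (21022 matched, 0 changed).

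The groups were compared in R 4.3.3 with limma 3.58.1 (lmFit, eBayes, two-sided, no covariate, 3.26 prior degrees of freedom), with Benjamini-Hochberg adjustment over all genes and calls at an adjusted p under 0.05. The fit was tested on simulated data. Tables and figures used Python 3.11.15 and matplotlib 3.10.9. The carriers, 23 gene lists, tests and alternatives were chosen with earlier results of these data known. Values on every array are given for called carriers and, in each of 8 roles, for up to 3 with the smallest p. From the 6 lists of genes that work beside the carriers, called genes or, with none, the 2 with the smallest p are named. Slc25a17, Slc25a25, Slc25a44, Cpt1a, Bbox1, Aldh9a1, Slc22a4, Pcsk1, Scg5, C1qb, C1qc, the keratins, Car1, Cd14 and Lyz2 were singled out after their values were seen. Alternatives were a replicate block, other variance priors, array weights, other normalizations, dim filters, all probe sets, other thresholds, unmoderated statistics and omission of each array. The labels do not say that equal replicate numbers pair the mice.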

Additional observations from a re-analysis of the deposited data

How the results depend on the processing

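The precision is limited by 3 arrays per group and by signals of unknown background. Slc25a45 was called under every alternative but ordinary unmoderated statistics, with a log2 fold change between 2.54 and 2.81. The number of carriers called, 3 in the main test, was 5 with array weights (Slc25a20 and Slc25a4 added), 1 with adjustment over all probe sets, 1 with a log2 fold change of at least 1, 0 with unmoderated statistics (where 7 carriers and 1858 genes had an unadjusted p under 0.05) and 1 to 4 with arrays left out. The number of genes called, 137, was 357, 90, 73 and 0 in the same order, 321 at an adjusted p under 0.10, and 13 to 430 with arrays left out. Over the 6 related lists, 4 in the main test, it was 1 with a log2 fold change of at least 1, 0 with unmoderated statistics (in the main test 9 higher and 6 lower genes had an unadjusted limma p under 0.05) and 0 to 4 with arrays left out. The median over the carriers was 0.15 with the dim filter at the median, and 13 to 17 carriers (28.3% to 37.0%) had groups without overlap when an array was left out, against 23.6% to 31.7% of all genes. The lowest share of carriers and the highest share of all genes both came without HDAC3FF replicate 3. Hdac3 passed at an adjusted p under 0.10, at -0.86.

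With the replicate number as a block, 1 carrier, 12 genes and 0 genes of the related lists were called. Same-numbered arrays had correlations of their deviations from the group means of -0.02, -0.07 and -0.20, and no array correlated best with its own number. With so few arrays these correlations cannot decide whether the mice were paired, and the labels do not state a pairing.

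Signs turned only for small differences. Slc25a11 was -0.0038 with quantile normalization, Slc25a16 0.011 with it and 0.0072 with median centring, Slc25a31 -0.032 with array weights and -0.013 with quantile normalization, and Slc25a38 0.023 with array weights. With arrays left out the log2 fold change ran from -0.099 to 0.19 for Slc25a11, -0.17 to 0.19 for Slc25a16, -0.046 to 0.31 for Slc25a17, -0.33 to 0.013 for Slc25a25, -0.010 to 0.093 for Slc25a27, -0.010 to 0.068 for Slc25a28, -0.15 to 0.066 for Slc25a29, -0.044 to 0.051 for Slc25a31, -0.26 to 0.043 for Slc25a32, -0.23 to 0.067 for Slc25a38, -0.088 to 0.11 for Slc25a41, -0.020 to 0.11 for Slc25a42, -0.091 to 0.053 for Slc25a43, -0.38 to 0.081 for Slc25a44, -0.13 to 0.031 for Slc25a46, -0.058 to 0.15 for Slc25a54 and -0.11 to 0.015 for Epcam. The cause was not tested in any of these. Among the named genes other than Hdac3, 73 results under an alternative lost a call and 4 gained one.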
